A study of Rattus norvegicus with 93 samples.

Results

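Genes of acetylcholine signalling were measured by RNA sequencing (polyadenylated RNA) in the rostromedial tegmental nucleus, or RMTg, of laboratory rats of outbred stock. The 9 genes were chosen by name. They are the 4 cholinergic neuron genes Chat, Slc5a7, Slc18a3 and Ache and the 5 muscarinic receptor genes Chrm1 to Chrm5, out of 38354 genes in the deposited table. The labels name 93 samples, all of 1 group and of this 1 tissue, and give no treatment, strain, age, sex or genotype. One sample, marked as removed, has no column and was not analysed here, which leaves 92 libraries, and 2 labels note a corrected identifier.

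Libraries were used where Nif3l1 took under 20% of the counts and LOC120093067 and Zfp532 together took under 10%, which held for 49 of the 92. Values are counts per 1000000 (CPM), and tests use log2 of CPM plus 1. The 49 libraries held 9.55 to 50.2 M estimated counts (M, 1000000 counts), with a median of 19.2 M. They belong to 5 series of sample identifiers, B to F, with 7, 16, 12, 7 and 7 libraries. A series is a run of identifiers with no gap over 50000, and what it stands for is not stated. The labels do not say that each library comes from a separate animal, so p-values measure the spread between these libraries, part of which may be technical. All 11 genes of an RMTg inhibitory list were measured past the filter on low values, as were all 11 dopaminergic and all 5 serotonergic genes, so RNA of neighbouring cell types was present. That filter asked that log2(CPM + 1) reach 1 in 20% of libraries or more. It kept 18749 genes and 6 of the 9 genes described here: Slc5a7, Ache, Chrm2, Chrm3, Chrm4 and Chrm5. Chat, Slc18a3 and Chrm1 did not pass.

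Cholinergic neurons make acetylcholine from choline and acetyl-CoA with choline acetyltransferase (Chat). They load it into vesicles with the vesicular acetylcholine transporter (Slc18a3) and take choline back up with the high-affinity choline transporter (Slc5a7). Acetylcholinesterase (Ache) ends the signal by splitting the transmitter, and it is also made by many neurons that do not release acetylcholine. Of the muscarinic receptors, M1, M3 and M5 (Chrm1, Chrm3, Chrm5) couple mainly to Gq proteins and phospholipase C, and M2 and M4 (Chrm2, Chrm4) mainly to Gi/o proteins. The RMTg is an inhibitory nucleus that projects to midbrain dopamine neurons, and it lies near the cholinergic pedunculopontine and laterodorsal tegmental nuclei.

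Slc18a3 lies within the Chat gene, an arrangement called the cholinergic locus. In the table Chat is placed at position 7723416 of chromosome 16 and Slc18a3 at 7722814, which is 602 bases away. Their promoter windows are shown with those of Slc5a7 and Ache, since these 4 genes make, store, recycle or split the same transmitter. Each window holds 250 bases before and 50 after a start, from RefSeq (build GRCr8, minus strand for all 4), written 5′ to 3′. For Chat, Slc18a3 and Slc5a7 that start is the gene's position in the table. Ache is placed at 25050608 in the table, so its window was set on another start and lies mostly after that position. The windows are chr16:7723367-7723666 for Chat, chr16:7722765-7723064 for Slc18a3, chr9:7953460-7953759 for Slc5a7 and chr12:25050361-25050660 for Ache. Capitals mark matches, on either strand, to 4 short promoter motifs that are spelled out after the sequences.
Chat: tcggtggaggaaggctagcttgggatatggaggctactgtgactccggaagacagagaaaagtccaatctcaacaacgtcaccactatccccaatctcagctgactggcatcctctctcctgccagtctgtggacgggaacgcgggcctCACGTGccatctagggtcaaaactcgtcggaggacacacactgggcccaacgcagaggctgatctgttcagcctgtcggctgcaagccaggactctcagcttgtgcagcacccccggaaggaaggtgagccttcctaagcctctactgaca
Slc18a3: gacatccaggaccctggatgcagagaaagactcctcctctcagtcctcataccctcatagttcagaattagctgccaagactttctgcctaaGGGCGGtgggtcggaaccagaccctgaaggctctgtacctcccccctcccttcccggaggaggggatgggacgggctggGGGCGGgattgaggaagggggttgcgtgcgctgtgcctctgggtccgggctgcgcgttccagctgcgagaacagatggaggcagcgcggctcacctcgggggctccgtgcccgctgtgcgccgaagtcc
Slc5a7: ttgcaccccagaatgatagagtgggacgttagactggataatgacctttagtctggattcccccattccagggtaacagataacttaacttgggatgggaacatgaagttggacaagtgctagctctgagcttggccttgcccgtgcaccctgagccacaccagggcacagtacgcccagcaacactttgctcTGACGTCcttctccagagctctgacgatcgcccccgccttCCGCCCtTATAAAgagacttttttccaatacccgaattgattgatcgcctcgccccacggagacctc
Ache: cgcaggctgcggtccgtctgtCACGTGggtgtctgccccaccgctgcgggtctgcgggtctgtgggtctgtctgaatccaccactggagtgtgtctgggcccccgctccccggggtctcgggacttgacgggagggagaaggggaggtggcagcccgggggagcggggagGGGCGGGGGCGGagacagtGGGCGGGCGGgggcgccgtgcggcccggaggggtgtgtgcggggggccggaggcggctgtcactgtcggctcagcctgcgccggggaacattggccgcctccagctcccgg
Over all 33469 RefSeq windows of the same length, the GC box, searched as GGGCGG, was found in 33.06%. The TATA box, searched as TATAAA, was found in 14.22%. The core of the cyclic AMP response element (CRE), searched as TGACGTC, was found in 3.22%. The E-box, searched as CACGTG, was found in 6.42%. The Chat window held 1 E-box and none of the other 3 motifs. The Slc18a3 window held 2 GC boxes. The Slc5a7 window held 1 match each to the GC box, the TATA box and the CRE core. The Ache window held 4 GC boxes, some of them overlapping, and 1 E-box, and its GC content was 75%, against a median of 51.67% over all windows. A match is a description of these letters, and no match says only that the letters are not in the window. Windows were found for 8 of the 9 genes, all but Chrm5.

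The genes that define a cholinergic neuron were near the limit of detection. Chat ranged from 0 to 1.32 CPM with a median of 0.086 CPM, and averaged 0.194 ± 0.267 CPM (SD, n = 49). It was listed at 0 in 14 libraries, where a count of 0 allows up to 0.092 to 0.314 CPM (3 counts, counting error only), and it had over 3 counts in 20 libraries. Only 1 of the 49 libraries reached 1 CPM. Slc18a3 ranged from 0 to 0.503 CPM with a median of 0.052 CPM, and averaged 0.098 ± 0.123 CPM (SD, n = 49). It was listed at 0 in 23 libraries and had over 3 counts in 13.

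Both genes had counts above 0 in 20 libraries, Chat alone in 15, Slc18a3 alone in 6 and neither in 8. The library highest in Chat, library 62 of series C (libraries are numbered in accession order), held 23.1 Chat counts, and Slc18a3 was at 0 there. The second highest in Chat, library 70 of series D at 0.831 CPM, was the highest in Slc18a3 at 0.503 CPM. Pearson's r between the 2 genes was 0.383 and Spearman's rho 0.365. Within series, r was 0.042 in B, 0.21 in C, 0.763 in D, 0.706 in E and 0.688 in F. With counts this sparse, and with Slc18a3 nested in Chat so that shared reads could be split between them, the correlation is a description and was not tested.

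Slc5a7, the choline transporter, was measured in every library. It ranged from 0.354 CPM in series E to 5.75 CPM in library 67 of series D, with a median of 2.50 CPM and a mean of 2.49 ± 1.32 CPM (SD, n = 49). The highest library was 16.2 times the lowest, and the SD was 3.54 times the SD that counting error alone would give. Among the 6 genes past the filter Slc5a7 had the largest SD of log2(CPM + 1), at 0.571. Its coefficient of variation in CPM, 52.98%, was close to the 52.33% of Chrm4. After the trend of spread on mean level was removed, the SD of Slc5a7 stood at percentile 95.4 of all genes past the filter. Values from low to high were found in every series, as the plot of levels by series shows, and no series held only high or only low libraries. Its r with Chat was 0.044, a description because Chat is sparse.

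Ache was measured at a mean of 144.8 ± 25.9 CPM (SD, n = 49), from 101.3 to 209.4 CPM with a median of 145.4 CPM. The highest library was only 2.07 times the lowest, and the coefficient of variation was 17.9%, against 52.98% for Slc5a7. The SD was still 9.10 times the counting SD, because of the depth behind each value. Levels of different genes are not compared here, because the deposited counts are not adjusted for transcript length. In bulk tissue fewer cells of a type and less RNA per cell cannot be told apart.

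Markers of the cell groups that could bring cholinergic RNA were measured beside these genes. Of 4 genes that tegmental cholinergic neurons also express, Nos1 (neuronal nitric oxide synthase), Tac1 (substance P precursor) and Slc17a6 (vesicular glutamate transporter 2) passed the filter, with medians of 7.503, 27.9 and 10.7 CPM. Uts2 (urotensin 2) did not, with a median of 0.036 CPM. These 3 genes are also expressed in non-cholinergic neurons. Of the motor neuron genes, Prph, Calca and Chodl passed, while Isl1 and Mnx1 had a median of 0 CPM. Of the forebrain cholinergic genes, Ngfr, the low-affinity neurotrophin receptor, passed, and Lhx8 and Gbx2 had a median of 0 CPM. None of 4 noradrenergic genes passed, and together they summed to between 0 and 0.609 CPM.

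**Figure D1:**
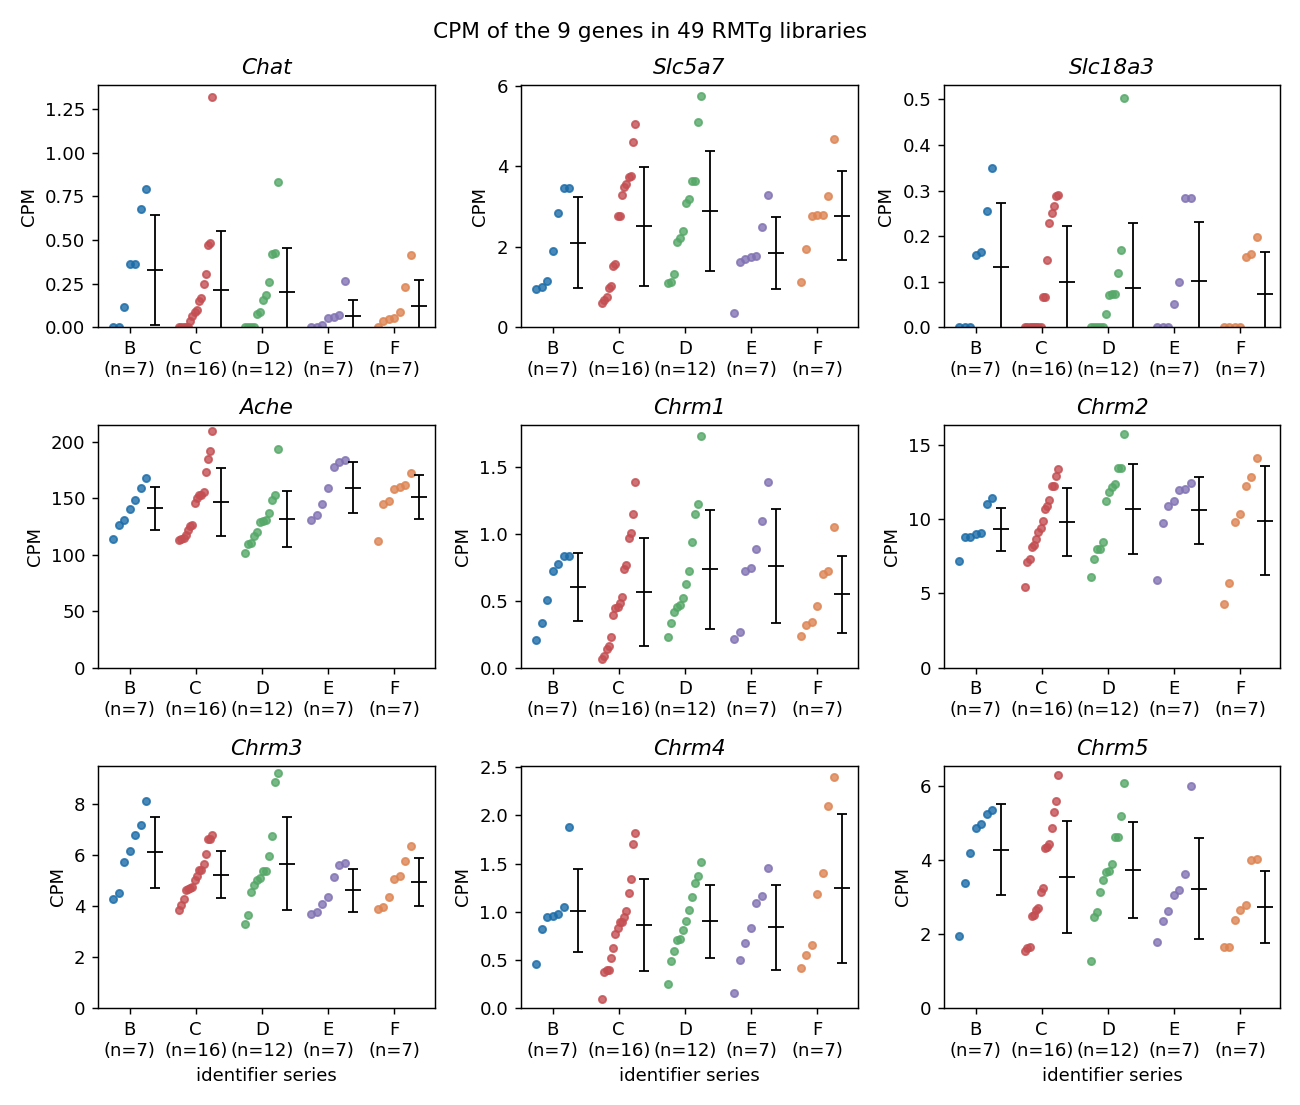
CPM of each gene in the 49 libraries, by identifier series B to F, with 1 point a library and the mean and SD of the series in black. Slc5a7 ran from 0.354 to 5.75 CPM and spread widely in every series, Ache stayed between 101.3 and 209.4 CPM, and Chat and Slc18a3 had many libraries at 0.

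Of the Gq-coupled receptors, Chrm1 (M1) ranged from 0.064 to 1.73 CPM with a median of 0.531 CPM, and averaged 0.637 ± 0.380 CPM (SD, n = 49). It reached a log2 value of 1 in 9 of 49 libraries (18.4%), just short of the filter's 20%. Chrm3, the M3 receptor, averaged 5.34 ± 1.30 CPM, from 3.31 to 9.22 CPM with a median of 5.14 CPM. Its 2 highest libraries, 71 and 67, were both of series D, at 9.22 and 8.86 CPM, and every other library was lower. Its spread was the narrowest for its level among the 4 receptors past the filter, at percentile 17.9. Chrm5, the M5 receptor, averaged 3.53 ± 1.35 CPM, from 1.28 to 6.30 CPM with a median of 3.39 CPM. Its highest library was 4.93 times its lowest, and its spread stood at percentile 85.5.

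Of the Gi-coupled receptors, Chrm2, the M2 receptor and an autoreceptor on cholinergic terminals, averaged 10.1 ± 2.55 CPM (SD, n = 49), from 4.30 to 15.7 CPM with a median of 10.3 CPM. Chrm4, the M4 receptor, averaged 0.945 ± 0.494 CPM, from 0.096 to 2.40 CPM with a median of 0.891 CPM, and reached a log2 value of 1 in 19 of 49 libraries. Its highest library was 87 of series F. Chrm4 overlaps Mdk and Chrm5 overlaps Aven in RefSeq, and the strand used in counting is not stated, so reads of the overlaps cannot be told apart. Mdk had a median of 40.6 CPM and r = -0.02 with Chrm4, and Aven had a median of 14.7 CPM and r = -0.023 with Chrm5. The same limit holds for Ache, Chrm2 and Chrm3, which overlap long noncoding RNA genes. That of Ache, LOC120095907, had a median of 8.05 CPM and r = -0.242 with Ache. Those of Chrm2 and Chrm3 had medians of 0.155 and 0.462 CPM. For all 9 genes the SD over libraries exceeded the counting SD, by 1.67 times in Slc18a3 to 9.10 times in Ache.

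The 5 series were compared to look for batches. By limma's moderated F test, 320 of 18749 genes (1.71%) differed between series at a Benjamini-Hochberg adjusted p under 0.05, and 0 of the 6 genes did. Their adjusted p-values lay between 0.521 and 0.958, and their unadjusted p-values between 0.145 and 0.844, so 0 of the 6 had an unadjusted p under 0.05 either. Series means of Ache ran from 132 ± 24.9 CPM in D (SD, n = 12) to 159 ± 22.5 CPM in E (SD, n = 7), and the libraries of all series overlapped. Series means of Slc5a7 ran from 1.86 ± 0.895 CPM in E (SD, n = 7) to 2.89 ± 1.49 CPM in D (SD, n = 12).

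Correlations among the 9 genes were low. Among the 15 pairs of the 6 genes past the filter, r ran from -0.315 to 0.299, and 8 pairs had a positive r. Under limma, with p adjusted over all genes, 0 of the 15 pairs passed. Of the permutation tests (100000 permutations, two-sided), 3 had an unadjusted p under 0.05, and the lowest p adjusted over the 15 pairs was 0.2 for r and 0.12 for rho. The highest r was between Slc5a7 and Chrm2 (r = 0.299, permutation p = 0.037; rho = 0.338, p = 0.018; n = 49), with within-series values from -0.003 in F to 0.8 in E. Ache and Chrm3 had the lowest (r = -0.315, permutation p = 0.028; rho = -0.241, p = 0.094), with 0.602 in series B and negative values in the other 4 series. Ache and Chrm4 had r = 0.294 (permutation p = 0.041; rho = 0.369, p = 0.0096), positive in series B to D and negative in E and F. With the 2 libraries farthest out in the first gene named left aside, these values were 0.238, -0.241 and 0.332. A p that misses the threshold does not show that the genes vary independently.

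The highest r of all 36 pairs, 0.467, was between Chrm1 and Chrm2 (rho = 0.407). It was positive in all 5 series, from 0.261 in B to 0.735 in E. Chrm1 and Chrm4 had r = 0.353 (rho = 0.416), also positive in all 5 series. Library 68 of series D was the highest in both Chrm1 (1.73 CPM) and Chrm2 (15.7 CPM), and it was the lowest in Ache (101.3 CPM). Since Chrm1 did not pass the filter, these values are a description.

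**Figure D2:**
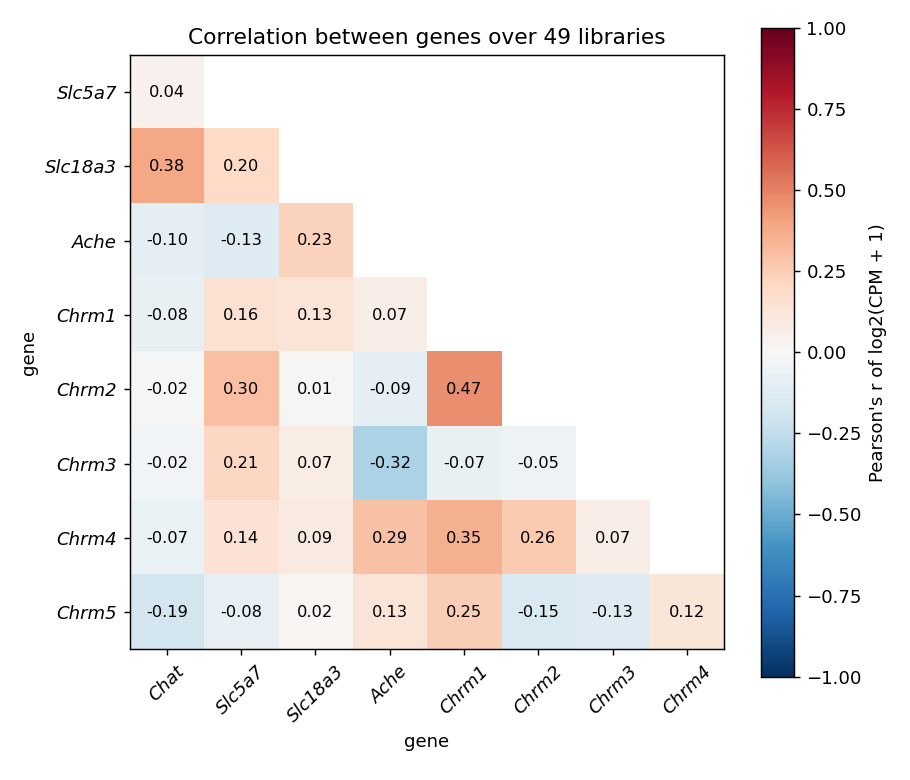
Pearson's r of log2(CPM + 1) over 49 libraries for each of the 36 pairs of genes. The highest value is that of Chrm1 and Chrm2 (0.467) and the lowest that of Ache and Chrm3 (-0.315).

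How the rest of the transcriptome moved with each gene was measured with 1 slope for every other gene past the filter (18748 genes). The slope is the change in a gene's log2(CPM + 1) for a rise of 1 SD in the predictor's log2 level, tested with limma at an adjusted p under 0.05. Slc5a7 and Chrm2 had 0 genes with such a slope (0%), with 1450 and 1036 genes at an unadjusted p under 0.05. Chrm4 had 1 gene (0.00533%). Ache had 6771 genes (36.1%), of which 4251 rose with it and 2520 fell. Chrm3 had 2355 (12.6%), with 831 rising and 1524 falling, and Chrm5 had 2288 (12.2%), with 1889 rising and 399 falling. The split of directions depended on the scaling. With median-of-ratios size factors it was 3175 rising and 3111 falling for Ache, 1625 and 1435 for Chrm3, and 958 and 628 for Chrm5. The main axis of variation between libraries, the first principal component with 16.97% of the variance, had r = 0.50 with Ache, -0.41 with Chrm3 and -0.35 with Chrm5. Its part in these counts was tested only as a covariate, which gave 6129 genes for Ache (32.7%), 262 for Chrm3 (1.4%) and 2323 for Chrm5 (12.4%).

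**Figure D3:**
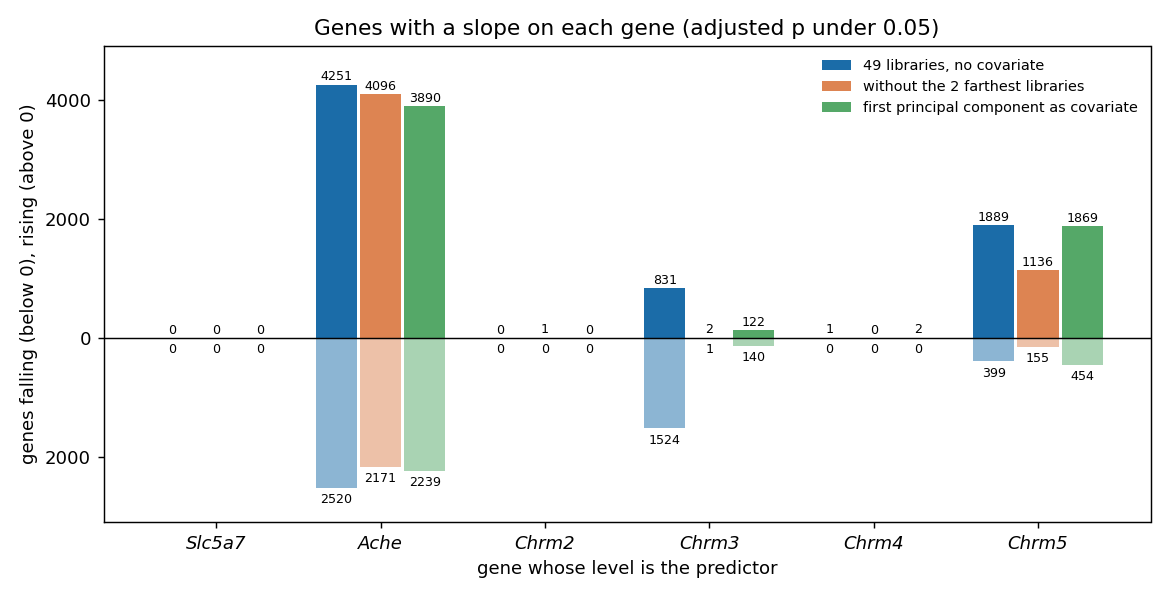
Number of genes with a slope on each of the 6 genes past the filter (limma, adjusted p under 0.05), rising above 0 in full colour and falling below 0 in pale colour, under 3 settings. The counts lie between 6129 and 6771 for Ache and between 1291 and 2323 for Chrm5, while that of Chrm3 is 2355 over 49 libraries and 3 without libraries 71 and 67.

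The genes most like Ache were Abhd8, Tmem59l and Gpi (glucose-6-phosphate isomerase, an enzyme of glycolysis). Abhd8 ran from 87.3 to 165.7 CPM with a median of 121.7 CPM, and had r = 0.894 and rho = 0.902 with Ache, with r between 0.837 and 0.924 in the 5 series. Tmem59l had r = 0.89 and Gpi r = 0.875. The most opposite was Eif2s2, the beta subunit of translation initiation factor 2 (r = -0.853, negative in every series). All 4 slopes passed, the least firm at an adjusted p of 3.2e-10 in limma.

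Genes that handle acetylcholine and choline were read against the share of all genes that rose with Ache, 22.7%. Of 10 measured, 3 rose and 0 fell, a share near that background. They were Prima1, the membrane anchor of acetylcholinesterase (slope 0.113 ± 0.029, SE; adjusted p = 0.002 in limma), Chkb, a choline kinase, and the choline transporter-like gene Slc44a2. Of these, Chkb did not pass with median-of-ratios scaling. The other cholinesterase gene, Bche, had a slope of 0.071 ± 0.063 (adjusted p = 0.4), and Colq, the collagen tail that anchors acetylcholinesterase at the neuromuscular junction, had 0.011 ± 0.050 (adjusted p = 0.88).

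Of 8 nicotinic receptor subunit genes, 5 rose with Ache (Chrna4, Chrna5, Chrna6, Chrnb2 and Chrnb3) and 0 fell, where 22.7% of all genes rose, and the median slope of the list was 0.179, against 0.0111 over all genes. Chrna4, a subunit of the main high-affinity nicotinic receptor of the brain, had the smallest adjusted p of these (slope 0.159 ± 0.032, SE; adjusted p = 0.00011 in limma). With the first principal component as covariate, 2 rose (Chrna4 and Chrnb4) and Chrna7 fell. These shares were near those of all genes in that setting, of which 20.7% rose and 11.9% fell. With median-of-ratios scaling Chrna5 did not pass. Xist, an X-inactivation RNA, and Ddx3y, a Y-linked gene, mark sex. With both as covariates Chrna4 and Chrna6 rose, where 17.5% of all genes did.

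Of 11 dopaminergic genes, 5 rose with Ache and 0 fell, where 22.7% of all genes rose: Th (tyrosine hydroxylase), Slc6a3 (dopamine transporter), Slc18a2 (vesicular monoamine transporter 2), Drd2 and Pitx3. Th ranged from 46.5 to 1067 CPM and had r = 0.526 with Ache (permutation p = 0.00021; rho = 0.533, p = 0.0001; n = 49), with within-series r from 0.031 in B to 0.833 in F. Without the 2 libraries farthest in Ache it was 0.459. Dopamine neurons also express acetylcholinesterase, but which cells the Ache RNA came from was not tested. The score of the dopaminergic list had r = 0.395 with Ache. With that score as covariate 6321 genes passed with Ache. Th, Slc6a3, Drd2 and Pitx3 also rose with Ache when the first principal component was a covariate, where 20.7% of all genes rose. They rose with Ache as well when Xist and Ddx3y were covariates, where 17.5% of all genes did. Slc18a2 passed in neither setting.

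Immediate early genes, which neurons switch on after activity, rose with Ache in 5 of 6 cases (Fos, Fosb, Arc, Egr1 and Junb), where 22.7% of all genes rose, with a median slope of 0.558. With the first principal component or with Xist and Ddx3y as covariates, 0 of 6 passed. Within series, r between Fos and Ache ran from -0.287 in E to 0.863 in F. Of 11 RMTg inhibitory genes 3 rose with Ache and 0 fell, a share near that of all genes. They were Gad1 (glutamate decarboxylase), Sox14 and Pnoc (prepronociceptin). Gad1 did not pass with median-of-ratios scaling or with either covariate, and Sox14 did not pass without the 2 libraries farthest in Ache. Of the genes downstream of Gi-coupled receptors 3 of 10 rose (Gnai2, Rgs4 and Kcnj9), again near that share. Of those downstream of Gq-coupled receptors, Plcb3 and Gna11 rose, and Kcnq3, a subunit of the M-current channel, fell (slope -0.121 ± 0.029, SE; adjusted p = 0.0009 in limma).

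Over the glial and vessel marker lists, the shares that rose or fell with Ache were near those of all genes (22.7% and 13.4%). Of 7 oligodendrocyte genes, Cnp rose, and of 5 astrocyte genes, Gfap and Aldh1l1 rose. Of 5 microglial genes, Tmem119 and Csf1r rose and Aif1 fell. Of 4 endothelial genes, the tight junction gene Cldn5 rose and Flt1, a receptor of vascular endothelial growth factor, fell. Cnp had slope 0.193 ± 0.038 (SE; adjusted p = 6.6e-05 in limma). With the first principal component as covariate, 20.7% of all genes rose and 11.9% fell. In that setting 0 of the astrocyte genes rose and 3 fell (Slc1a3, Aqp4 and Gja1), while Cnp, Tmem119 and Csf1r rose. The part of these cell types in the count for Ache was not tested.

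The gene most like Slc5a7 was Slc17a6, the vesicular glutamate transporter 2. Slc17a6 ranged from 3.53 to 29.04 CPM with a median of 10.7 CPM. It had r = 0.547 with Slc5a7 (permutation p = 8e-05; rho = 0.553, p = 3e-05; n = 49), and r was positive in all 5 series, from 0.11 in F to 0.716 in E. Since it was picked by the naming rule from all genes for its high r, these unadjusted p-values overstate it, and its slope of 0.373 ± 0.079 had an adjusted p of 0.31 in limma. Frmpd4 (r = 0.519) and Dmxl2 (r = 0.485) came next, and Ugt1a7c was the most opposite (r = -0.506). The other tegmental co-markers had r = 0.012 (Nos1) and 0.256 (Tac1) with Slc5a7. Among motor neuron genes, r was -0.021 for Prph, -0.097 for Calca and -0.16 for Chodl.

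The genes most like Chrm2 were Lamp5 (r = 0.547), Robo1, an axon guidance receptor (r = 0.544), and Gria3, an AMPA glutamate receptor subunit (r = 0.532). The most opposite was C12h7orf50 (r = -0.56). Their adjusted p-values lay between 0.24 and 0.37 in limma, so none passed. Slc17a6 had r = 0.391 with Chrm2 (rho = 0.404), and its slope had an adjusted p of 0.83. Kcnj3, a subunit of the inward rectifier channel that M2 receptors open, had r = 0.315 with an adjusted p of 0.87.

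The 1 gene that passed with Chrm4 was Crhr2, the type 2 receptor of corticotropin-releasing hormone. Crhr2 ranged from 0.114 to 7.27 CPM with a median of 1.29 CPM. Its slope was 0.454 ± 0.078 (SE; adjusted p = 0.00675 in limma), with r = 0.627 and rho = 0.657 over 49 libraries. It was positive in all 5 series, from 0.457 in B to 0.904 in F. Both genes were high in library 87 of series F, where Chrm4 was at its highest. Without that library the adjusted p was 0.117 and 0 genes passed, and without the 2 farthest libraries r was 0.566 and 0 genes passed. Without library 84 of series E 93 genes passed, Crhr2 among them (adjusted p = 0.011 in limma), and without any 1 of libraries 38, 44, 45, 48, 51, 64, 68, 72 and 92 the count was 2 or 3. Next in likeness were Entpd3 (r = 0.585, adjusted p = 0.065 in limma) and Kcnab3, a potassium channel beta subunit (r = 0.565), and the most opposite was Tmed5 (r = -0.522).

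**Figure D4:**
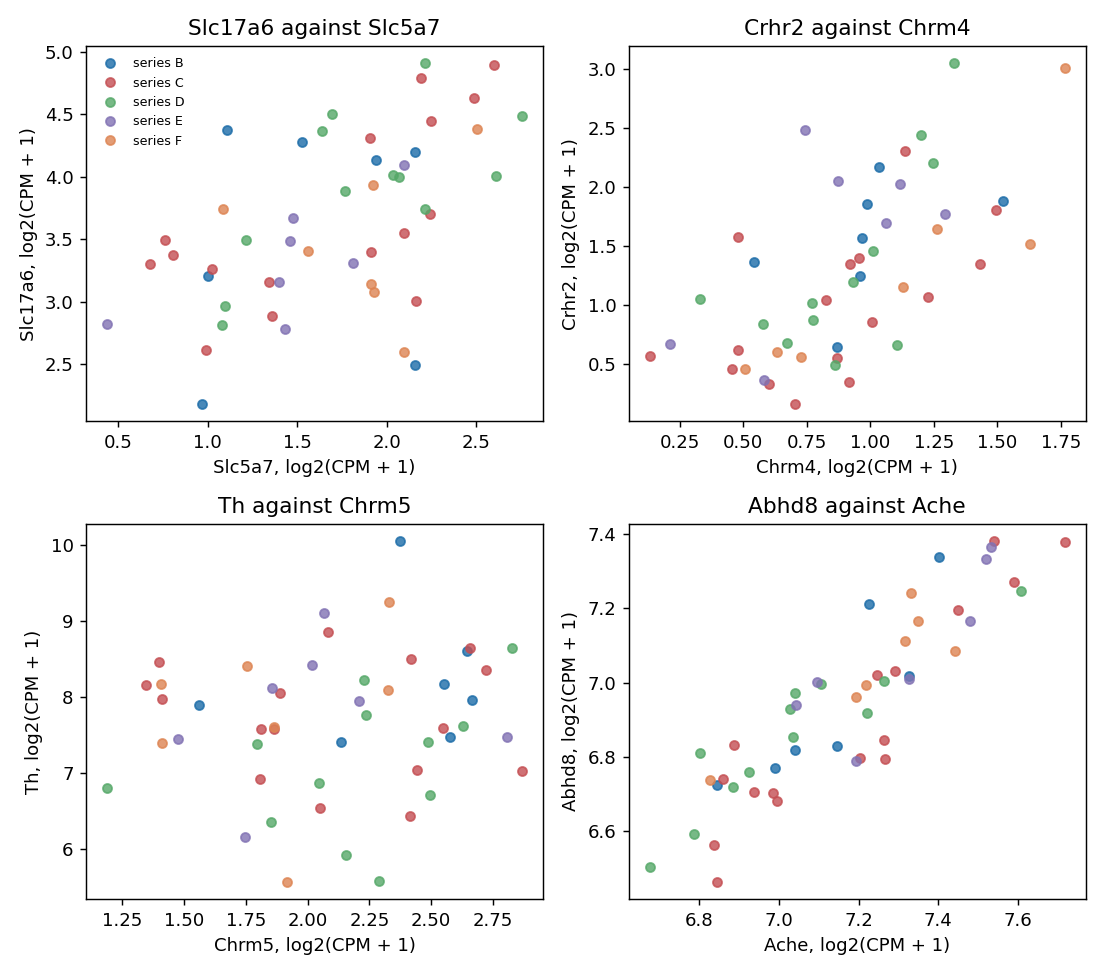
Log2(CPM + 1) of 4 gene pairs in the 49 libraries, coloured by series: Slc17a6 against Slc5a7 (r = 0.547), Crhr2 against Chrm4 (r = 0.627), Th against Chrm5 (r = 0.117) and Abhd8 against Ache (r = 0.894). Library 87 of series F is the point farthest right in the Chrm4 panel.

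Chrm5 is known in the rat midbrain as a receptor of dopamine neurons. In these libraries 0 of 11 dopaminergic genes rose or fell with it, where 12.2% of all genes did. Their median slope was 0.038, against 0.025 over all genes. Th had r = 0.117 with Chrm5 (permutation p = 0.43; rho = 0.152, p = 0.3; n = 49), with within-series values from -0.146 in C to 0.373 in D. Its slope was 0.110 ± 0.126 (adjusted p = 0.61 in limma). With the first principal component as covariate, Slc6a3 rose with Chrm5. Of 11 RMTg inhibitory genes 3 rose with Chrm5 and 0 fell, read against the 10.1% of all genes that rose. The median slope of this list was -0.00797, below the 0.025 over all genes, so the list as a whole did not rise. The 3 genes were Oprm1, the mu opioid receptor (slope 0.249 ± 0.049, SE; adjusted p = 0.00063 in limma), Gad2, a glutamate decarboxylase, and the transcription factor gene Foxp1. For Oprm1, r was 0.596 and positive in every series, from 0.428 in F to 0.68 in D. Foxp1 did not pass with median-of-ratios scaling or with the first principal component as covariate, while Oprm1 and Gad2 passed under both.

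Of 9 genes downstream of Gq-coupled receptors, 2 rose with Chrm5 and 0 fell, where 10.1% of all genes rose. Both encode phospholipase C beta, the enzyme that Gq activates, and the third such gene listed, Plcb3, had a slope of 0.081 ± 0.052 (adjusted p = 0.31 in limma). Plcb1 had a slope of 0.255 ± 0.048 (adjusted p = 0.00046 in limma) and Plcb4 one of 0.181 ± 0.035 (adjusted p = 0.00058 in limma), and both also passed without the 2 farthest libraries. Gnaq, a Gq protein gene of the same list, had a negative slope, -0.055 ± 0.02 (adjusted p = 0.064 in limma). Of 10 genes downstream of Gi-coupled receptors, 1 rose with Chrm5 (Kcnj6, adjusted p = 0.038 in limma) and 0 fell, near the share of all genes. Of 8 nicotinic subunit genes 1 rose with Chrm5, a share near the 10.1% of all genes. It was Chrnb4, which is common in the habenula and interpeduncular nucleus (slope 0.147 ± 0.041, SE; adjusted p = 0.012 in limma). Of 5 interpeduncular genes, which include Chrnb4, 1 rose and 1 fell. The gene that fell, as 2.13% of all genes did, was Irx2 (slope -0.167 ± 0.041, SE; adjusted p = 0.0045 in limma). Neither Chrnb4 nor Irx2 passed without the 2 farthest libraries. The genes most like Chrm5 were Usp15, a deubiquitinase (r = 0.716), Fam174b (r = 0.701) and Gpatch1 (r = 0.691), and the most opposite was Rad52, a DNA repair gene (r = -0.659). Without library 62 of series C the count was 1430 genes.

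The count of genes with a slope on Chrm3 rested on 2 libraries. Over 49 libraries the most alike were Sema7a (r = 0.70), Cadm4 (r = 0.672) and the zinc transporter gene Slc39a1 (r = 0.663), and the most opposite was Cep120 (r = -0.638). Of all genes 4.43% rose and 8.13% fell with Chrm3. Of 11 RMTg inhibitory genes, Sst (somatostatin) rose, and Oprm1, Gad1 and Gad2 fell. Of 10 genes downstream of Gi-coupled receptors, Gnai1, Gnai3 and Rgs4 fell, and 0 of the 9 downstream of Gq-coupled receptors passed. Without library 71 the count was 203 genes, without library 67 it was 1270, and without both it was 3. Then 0 of the genes of these lists passed. Sema7a still had r = 0.638 without both.

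For Chat the likeness is given only as a description, because it rests on few counts. The genes most like it were Mylip (r = 0.535), Zbtb8a, Acsl6, Acot3, Gapt, Prr18, Klra2, Add3, Bend4 and Bin2 (r = 0.407), and the most opposite were Osbp2 (r = -0.502), Has2, Phf7, Kctd21 and Stard6 (r = -0.466). Without the 2 libraries farthest in Chat, the r of Mylip was 0.412 and that of Osbp2 was -0.283.

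The libraries not used showed these genes at other levels. In the 32 libraries in which LOC120093067 and Zfp532 took 10% or more of the counts, the totals were 2.29 to 13.7 M counts. Median levels in the 49 libraries used, set against these 32, were 145.4 and 24.1 CPM for Ache, 10.3 and 7.70 CPM for Chrm2, and 5.14 and 4.63 CPM for Chrm3. They were 2.50 and 1.11 CPM for Slc5a7, 3.39 and 1.13 CPM for Chrm5, and 0.891 and 0 CPM for Chrm4. Chrm4 was at 0 in 20 of the 32 libraries, where a count of 0 allows up to 0.437 to 1.31 CPM (3 counts, counting error only). Chrm3 reached 21.96 CPM in the 32 libraries, against a highest value of 9.22 CPM in the 49. In the 11 libraries dominated by Nif3l1, Chat, Slc18a3 and Chrm4 were at 0 throughout. A count of 0 there allows up to 0.356 to 1.75 CPM (3 counts, counting error only). That limit exceeds the medians of Chat and Slc18a3 in the 49 libraries (0.086 and 0.052 CPM) and spans that of Chrm4. These values of 0 therefore do not show lower levels. These sets were defined from the counts and are not groups of the study, so no test was made between them.

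**Figure D5:**
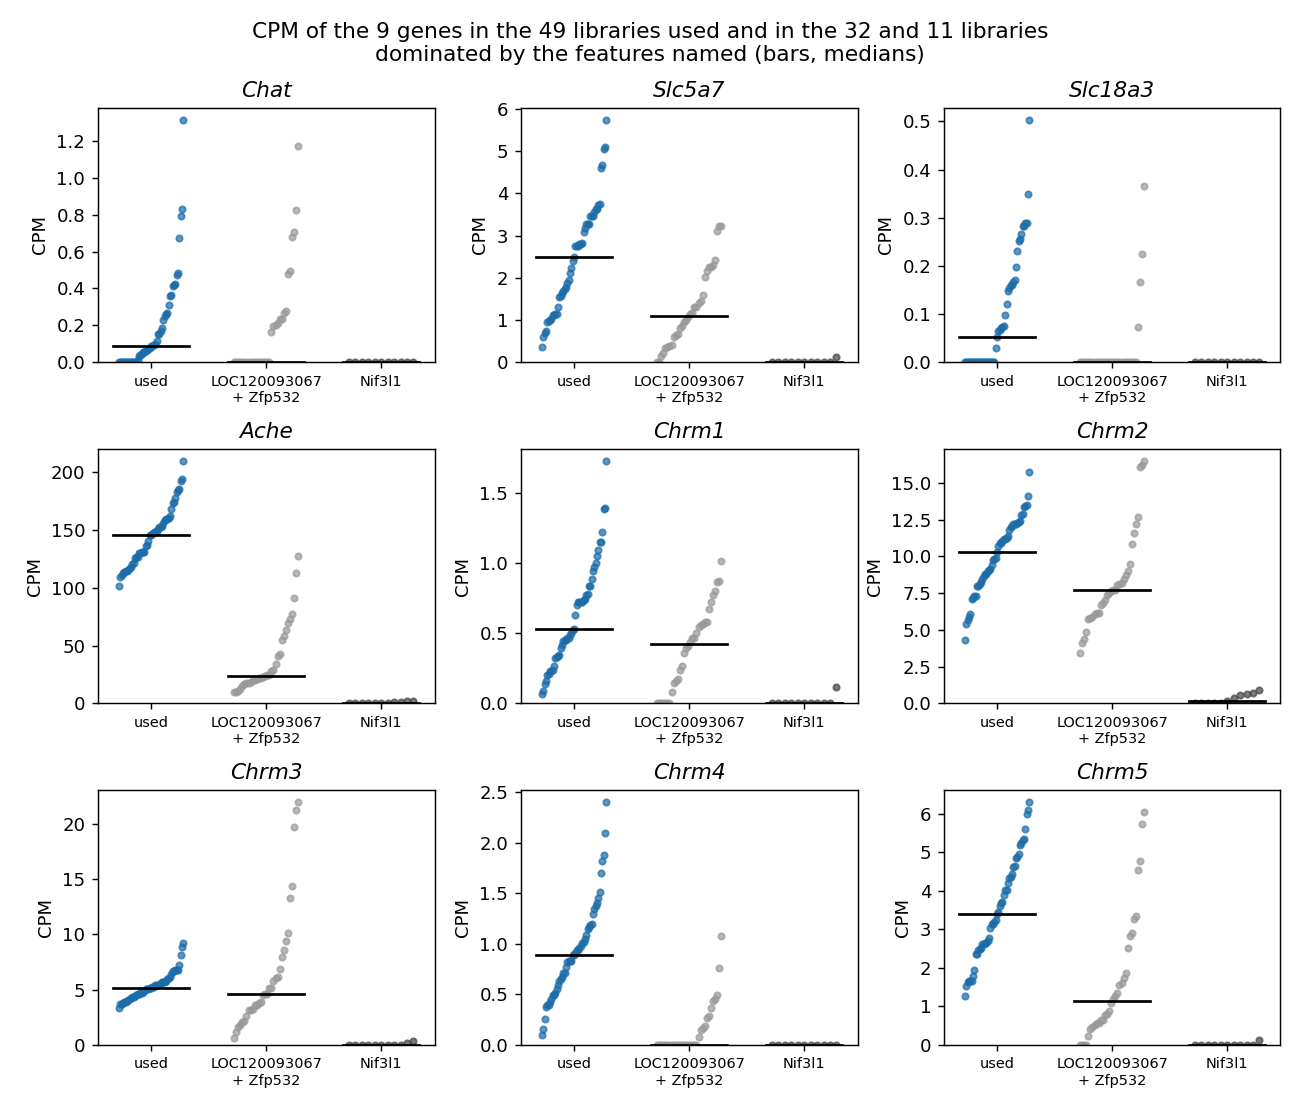
CPM of each gene in the 49 libraries used, the 32 dominated by LOC120093067 and Zfp532 and the 11 dominated by Nif3l1, with 1 point a library and bars at the medians. The median of Ache is 145.4 CPM in the libraries used, against 24.1 CPM in the 32 libraries, and in the 11 libraries no gene exceeds 2.38 CPM.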

How the data were processed

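Polyadenylated RNA of the RMTg was sequenced, and the deposited table holds log2 values per gene. Quantification used kallisto 0.48, per the submitters' processing notes. The deposited entries read as log2 of an estimated count plus 1: once transformed back, 49.94% of the low values (between 0 and 20) lay within 0.01 of an integer, and totals differed between libraries. Genome build and strandedness are not given in the sources used here. Positions of all 38272 genes found by symbol in RefSeq (GRCr8) equal an end of that gene there.

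Estimated counts were divided by the library total to give CPM, and analysed as log2(CPM + 1). Slopes and series were tested with limma's trended empirical Bayes test (version 3.58.1, under R 4.3.3; Benjamini-Hochberg over all genes). Pairs were tested by permutation (scipy 1.17.1). Both limma procedures were checked on simulated data. Genes besides the 9 and the lists are named by largest r: 10 positive and 5 negative for Chat, 3 and 1 for each other gene past the filter, keeping genes whose r had the same sign in each of the 5 series and passing over LOC, RGD, AABR, ENSRNOG and Rik symbols. Spreads were read against the trend of SD on mean level. The 49 libraries formed 1176 pairs, of which 0 were identical. The genes, the lists, the library rule and the alternatives were chosen with earlier results of these data known. Adjustment for the first principal component, and leaving out each library in turn, were added after seeing the data. A few genes of the lists are not reported here.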

Additional observations from a re-analysis of the deposited data

Results flagged for a closer look

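In all, 3 values stood apart from the other libraries of their series by Dixon's test. In series E the highest library had 0.266 CPM of Chat, against 0 to 0.071 CPM in the other 6. In series E the lowest library had 5.88 CPM of Chrm2, against 9.72 to 12.4 CPM in the others. In series B the highest library had 1.88 CPM of Chrm4, against 0.456 to 1.05 CPM in the others. Of 27 combinations of gene and series tested, 3 were marked, and chance marks about 1 in 20.

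Among the 11 libraries dominated by Nif3l1, which were in no comparison, Ache exceeded 3 counts in 4, with up to 16.3 counts, and Chrm2 exceeded 3 counts in 4, with up to 7.27 counts.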

How the results depend on the processing

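No paired analysis was possible because all samples belong to 1 group. With the 32 libraries dominated by LOC120093067 and Zfp532 added (81 libraries, which fall into 2 sets), the genes with a slope numbered 14614 for Slc5a7, 17063 for Ache, 11976 for Chrm2, 9406 for Chrm3, 16440 for Chrm4 and 16382 for Chrm5. Then 11 of the 15 pairs passed, the mean of Ache was 102.8 CPM, and the sign of r turned for Slc5a7 with Ache (0.42) and Chrm5 (0.29), for Ache with Chrm2 (0.278) and Chrm3 (0.359), for Chrm3 with Chrm5 (0.459) and for Chrm2 with Chrm5 (0.101, not past the threshold). The cause was not tested. Within the 49 libraries, Xist and Ddx3y as covariates gave 4123 genes for Ache and 772 for Chrm3. Without the 2 libraries farthest out in the gene itself, the counts were 1 for Chrm2, 3 for Chrm3, 0 for Chrm4 and 1291 for Chrm5. The first principal component as covariate gave 262 for Chrm3 and 2 for Chrm4, and together with series 586 and 2. The dopaminergic score gave 2 for Chrm4. Leaving out each library in turn gave 6246 to 7248 genes for Ache, 203 to 3137 for Chrm3, 0 to 93 for Chrm4 and 1430 to 2713 for Chrm5. Genes differing between series, 320, numbered 105 with Xist and Ddx3y, 131 with the first principal component, and 581, 125 and 116 without series C, E and F. Further low values of r also turned sign, that of Ache with Chrm2 without the 2 libraries farthest out (0.037) and that of Chrm2 with Chrm3 adjusted for the first principal component (0.003), neither past the threshold. Within single series, which were not tested, r had the opposite sign in 21 of 75 values. The 6 genes passed the series test under no alternative (lowest adjusted p 0.295 in limma). Depth limits Chat, Slc18a3 and Chrm1, which have few counts.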
